A study of Mus musculus with 32 samples.

Results

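Peripheral lymph nodes of mice that overexpress CD30 ligand on T cells were compared with those of their wild type littermates. The comparison takes 4 transgenic and 4 wild type arrays, 1 per mouse, chosen by tissue and genotype, which are 8 of the 32 arrays of the series. The transgenic mice are named CD2-CD30L in the labels, which state that CD30L (gene symbol Tnfsf8) was overexpressed constitutively and in T cells only. The wild type mice were littermates without the transgene. All 8 mice were female C57BL/6 aged 12 weeks, and each also gave a mesenteric lymph node, a spleen and a thymus. The founder line, the copy number and the site of insertion do not appear in the labels, nor is it said which peripheral nodes were taken or whether several were pooled.

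CD30L is a membrane protein of the tumour necrosis factor family that appears on activated lymphocytes, and CD30 (Tnfrsf8) is its receptor, which signals through TRAF adaptors to NF-kB. Peripheral lymph nodes drain the skin and are filled by lymphocytes that leave the blood through high endothelial venules. In their follicles, B cells given antigen and T cell help form germinal centres, where they divide rapidly, mutate and switch their antibody genes, and leave as memory or plasma cells. Markers of the tissue were in place on all 8 arrays, since Cd3e and Cd3d of T cells, Ms4a1 and Cd79a of B cells, Cxcl13 of follicular stroma and Glycam1 of high endothelial venules lay at or above the 94.6th percentile of each array. The lowest percentile was 90.9 for Cd8a and 81.3 for Cd4, and Chst4 of high endothelial venules lay between percentiles 69.1 and 78.3.

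The arrays of this tissue were of similar quality. Correlations between them ran from 0.968 to 0.984, and wild type mouse 4 had the lowest trimmed mean intensity (147, against 201 to 268 on the other arrays) and the lowest median correlation (0.971). RNA integrity, read from the 3'/5' ratio of Actb, was 1.52 to 2.09 on transgenic and 1.65 to 1.85 on wild type arrays. The ratio of Gapdh was 1.27 to 1.69 on transgenic and 1.36 to 2.02 on wild type arrays, highest on wild type mouse 3. Skeletal muscle transcripts stood out on wild type mice 1 and 3 and, to a lesser degree, on transgenic mouse 1. All values below are log2 of the intensity plus 16 after quantile normalization, a difference is transgenic minus wild type, and a probe set passed at a Benjamini-Hochberg adjusted p under 0.05 by limma.

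Of 27022 probe sets tested, 10 passed, which is 0.037% of them, 9 higher (0.0333%) and 1 lower (0.0037%) in transgenic nodes. The 9 that rose were a probe set without a gene symbol, 4 probe sets of Ighm, the heavy chain of IgM, and 1 each of Rgs13, Dtl, Adam15 and Poc1b. The 1 that fell was Slc39a13, a zinc transporter. At an unadjusted p under 0.05 there were 2259 probe sets (8.36%), 1138 higher and 1121 lower. The median difference over all tested probe sets was -0.01. The number of calls depended on single arrays. Leaving out transgenic mouse 1, 2, 3 or 4 gave 2, 1, 11 and 2 calls, and leaving out wild type mouse 1, 2, 3 or 4 gave 1, 3, 9 and 0. With the 3 most muscle-rich arrays left out, which leaves 3 transgenic and 2 wild type mice, 1 probe set passed, that of Ucp1, which is none of the 10. In a fit over all 32 arrays, where the spread is estimated from every tissue, 128 probe sets passed for this tissue, 120 higher (0.444%) and 8 lower (0.0296%), among them 8 of the 10. Calls of that fit rest in part on the spread in the other tissues, which can be smaller than in this one.

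Rgs13, a regulator of G protein signalling that germinal centre B cells use to dampen chemokine receptors, had values of 8.97, 8.73, 8.57 and 9.75 in transgenic nodes and 6.28, 6.03, 6.43 and 5.96 in wild type nodes. The genotypes lay more than 2 log2 units apart and transgenic mouse 4 was the highest. The difference was 2.83 ± 0.25 (SE, n = 4 per genotype, limma adjusted p = 0.0206). It kept its call without transgenic mouse 3 or 4 or wild type mouse 3, and lost it without any of the other 5 (adjusted p up to 0.126, difference 2.59 to 2.97 over the 8). Of the 15 tested RGS genes only Rgs13 passed, and their median was -0.07. Rgs10 and Rgs1, which lymphocytes also express, had differences of -0.19 and -0.25 without passing. Genotypes were separate on the low side for 1 member of the family (6.67%, against 2.92% of all tested probe sets).

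The probe set without a symbol had 9.10, 9.78, 9.15 and 9.65 in transgenic nodes and 6.46, 5.73, 6.56 and 6.16 in wild type nodes. Its difference of 3.19 ± 0.22 (adjusted p = 0.00662) had the smallest p of all tested probe sets. It kept its call in 7 of 8 fits that left out an array and lost it without wild type mouse 4, with adjusted p up to 0.0734. The annotation used here gives it no gene, so what it measures is not stated.

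**Figure D1:**
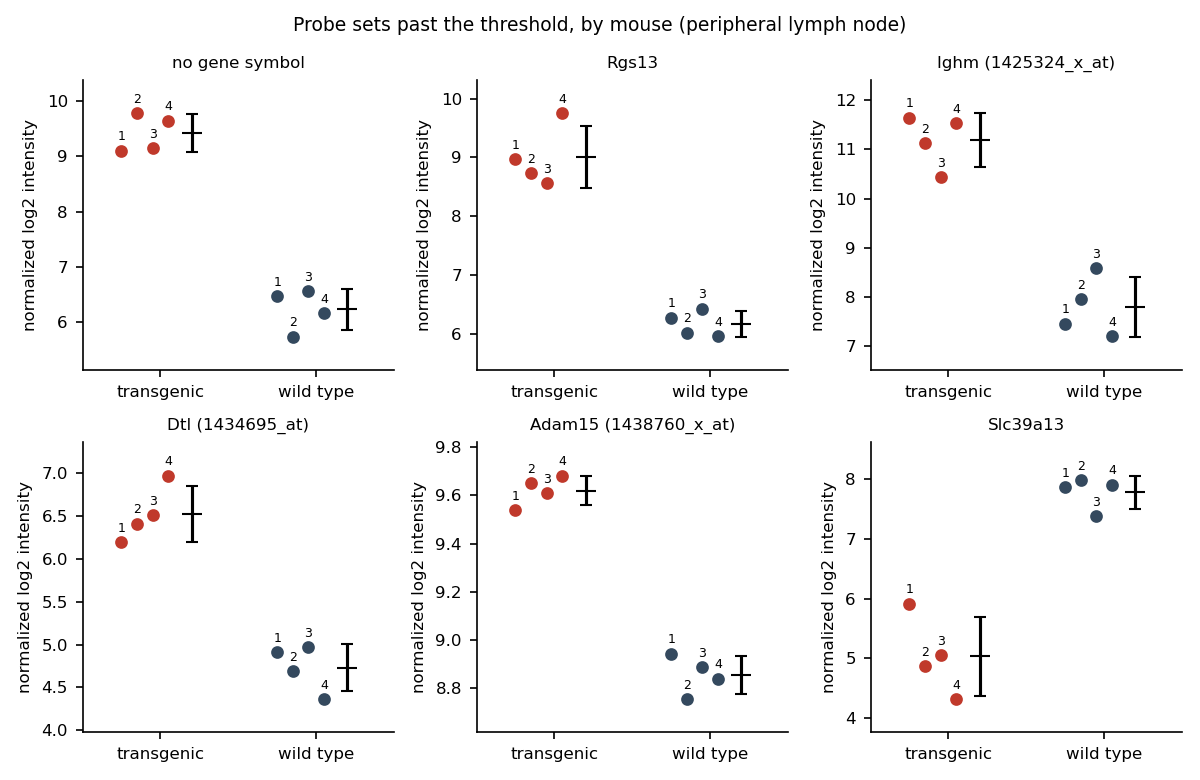
Normalized log2 intensity of 6 of the 10 probe sets that passed, for each transgenic mouse (left, red) and wild type mouse (right, dark), numbered 1 to 4, with mean and SD. The genotypes do not overlap in any panel, and Slc39a13 is the 1 probe set whose transgenic values lie below the wild type values.

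The remaining calls were less firm. Dtl, which marks replication proteins for degradation in S phase, had 6.19, 6.41, 6.50 and 6.97 in transgenic nodes and 4.91, 4.69, 4.97 and 4.37 in wild type nodes on 1 probe set (difference 1.79 ± 0.19, adjusted p = 0.0289). The other 4 tested Dtl probe sets had differences between -0.30 and 0.53, and none passed. Its values lie near the floor, and the difference is 2.80 when 1 is added before log2 and 0.91 when 64 is added. Dtl lost its call in all 7 fits without 1 array in which it was tested (adjusted p up to 0.131). Its mean intensity cleared the filter for testing only through the transgenic values, as the wild type mean was 4.73. In the remaining such fit it fell below the filter.

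Adam15, a membrane metalloproteinase, had 9.54, 9.65, 9.61 and 9.68 in transgenic nodes and 8.94, 8.76, 8.89 and 8.84 in wild type nodes, a small but tight difference of 0.77 ± 0.08 (adjusted p = 0.0289). Its other tested probe sets had 0.14 ± 0.24 and 0.58 ± 0.27, with overlapping genotypes. Poc1b, a centriole protein, had a difference of 0.68 ± 0.08 on 1 probe set (adjusted p = 0.0335) and 0.07 ± 0.18 on its other. Neither Adam15 nor Poc1b kept its call in any fit that left out 1 array (adjusted p up to 0.163 and 0.226), and these 2 were the calls that the fit over all 32 arrays did not make.

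Slc39a13, which exports zinc from the Golgi and is known for its role in connective tissue, fell to 5.91, 4.87, 5.05 and 4.32 in transgenic nodes, against 7.87, 7.98, 7.38 and 7.90 in wild type nodes. Every transgenic mouse lay well below every wild type mouse. The difference was -2.74 ± 0.31 (adjusted p = 0.0335), and of the fits without 1 array it kept its call in the 1 without transgenic mouse 1 (adjusted p up to 0.190). Low values make its size depend on the number added before log2, with -3.72 for 1 and -1.71 for 64.

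**Figure D2:**
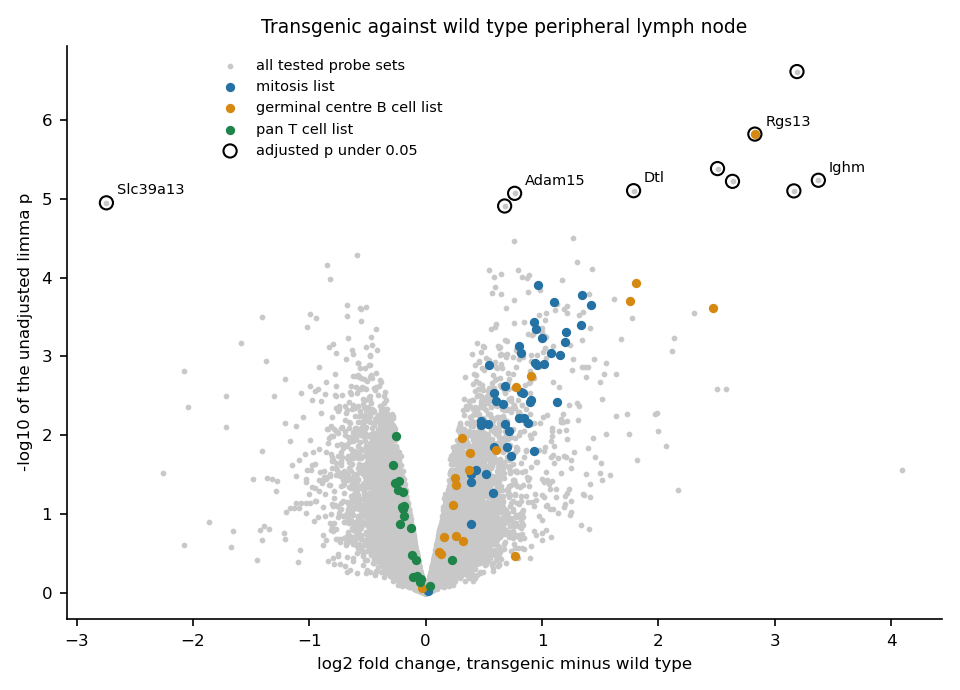
Difference in log2 intensity, transgenic minus wild type (x axis), against -log10 of the unadjusted limma p (y axis) for the 27022 tested probe sets, with the mitosis, germinal centre B cell and pan T cell lists coloured and the 10 probe sets that passed ringed. The mitosis list lies wholly to the right of 0 below the ringed probe sets, and 18 of 20 pan T cell genes lie to the left.

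The germinal centre list holds 20 genes, all of which were tested. Of these 1, Rgs13, passed, 19 had a positive difference, and the median was 0.35 against -0.01 over all tested probe sets. The 4 transgenic values lay above the 4 wild type values for 9 of the 20 (45%), where 2.43% of all tested probe sets did so. The fit over all 32 arrays called 5, Rgs13, Eaf2, Mybl1, Mef2b and Gcsam, against 0.444% of all probe sets. Both counts include Mef2b and Mybl1, which cleared the filter for testing only through their transgenic values. This list and those below were chosen with earlier results of these data known, so their shares describe the members and are not a test. In whole nodes, a change in the number of cells of a type and a change in RNA per cell cannot be told apart. This holds here and for any list below, higher or lower.

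Mef2b, a transcription factor that switches on Bcl6 in germinal centre B cells, had 7.23, 7.32, 6.65 and 8.68 in transgenic nodes and 4.87, 4.54, 5.66 and 4.95 in wild type nodes. Mybl1, a Myb family factor of dividing germinal centre B cells, had 7.11, 6.67, 6.69 and 7.84 in transgenic nodes and 5.80, 5.46, 5.05 and 4.97 in wild type nodes. Transgenic mouse 4 was again the highest for both, and no wild type value reached a transgenic one. The differences were 2.47 ± 0.41 for Mef2b and 1.76 ± 0.29 for Mybl1, each with an adjusted p of 0.141. Because the wild type values lie near the floor, adding 64 in place of 16 lowers Mef2b to 1.51. With wild type means of 5.00 and 5.32, Mef2b and Mybl1 cleared the filter for testing only through their transgenic values.

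Eaf2, a partner of transcription elongation factors that restrains germinal centre B cells, had 7.79, 8.20, 7.05 and 8.38 in transgenic nodes and 6.26, 5.85, 5.83 and 6.25 in wild type nodes (1.81 ± 0.27, adjusted p = 0.121). Gcsam, a signalling adaptor that marks germinal centre B cells, had 0.90 ± 0.20 on its brighter and 1.53 ± 0.34 on its dimmer probe set, without overlap on either. The DNA glycosylase Neil1 (0.78 ± 0.18), the transcription factor Mef2c (0.31 ± 0.10), the receptor Il21r for interleukin 21 (0.25 ± 0.10) and the adaptor Klhl6 (0.26 ± 0.11) also had separate genotypes. None of these passed over all probe sets.

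The gene that defines the germinal centre programme, Bcl6, differed by less. It had 9.29, 9.25, 9.41 and 9.72 in transgenic nodes and 9.14, 8.98, 8.80 and 9.27 in wild type nodes, a difference of 0.37 ± 0.14 with an overlap of the genotypes (adjusted p = 0.531). S1pr2, the receptor that confines B cells to the germinal centre, had 0.61 ± 0.20, and Pou2af1, a coactivator of octamer factors, 0.38 ± 0.13. Fas (0.32 ± 0.24) and Lmo2 (-0.03 ± 0.17), which are markers of the same cells, overlapped fully.

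The mitosis list, which holds the spindle, kinetochore and cytokinesis genes of dividing cells, had the highest median of the 38 lists after immunoglobulin. Of its 47 genes 46 were tested, all 46 differences were positive, and their median was 0.82. None passed over all probe sets in the fit of this tissue, 43 had an unadjusted p under 0.05 on the high side (4.21% of all tested), and the genotypes did not overlap for 34 (73.9%, against 2.43% of all). The fit over all 32 arrays called 27 of them, where it called 0.444% of all probe sets higher. Division genes could vary less in the other tissues. In each tissue's own fit the SE of Mki67 was 0.24 in peripheral node, 0.13 in mesenteric node, 0.19 in spleen and 0.09 in thymus.

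Mki67, the antigen Ki-67 of cycling cells, had 9.49, 9.81, 9.55 and 10.62 in transgenic nodes and 8.57, 8.59, 8.69 and 8.28 in wild type nodes. Cdk1, the kinase that starts mitosis, had 8.87, 9.20, 9.06 and 9.67 in transgenic nodes and 7.83, 8.29, 8.21 and 8.06 in wild type nodes. Both were higher in every transgenic mouse, by 1.33 ± 0.24 (adjusted p = 0.162) and 1.10 ± 0.18 (adjusted p = 0.141). Ncapg, a condensin subunit that compacts chromosomes, had 7.23, 7.86, 7.07 and 8.19 in transgenic nodes and 6.06, 6.25, 6.27 and 6.09 in wild type nodes. Its difference of 1.42 ± 0.24 was the largest of the list.

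By role, the spindle genes Nusap1, Kif11 and Tpx2 had differences of 0.97 ± 0.15, 0.95 ± 0.17 and 1.20 ± 0.23. Among kinetochore genes, Nuf2 had 1.34 ± 0.21, Cenpf 1.20 ± 0.22 and Ndc80 0.91 ± 0.23. The checkpoint kinases Bub1 and Ttk had 1.08 ± 0.22 and 1.01 ± 0.22, and Nek2, a centrosome kinase, 1.15 ± 0.23. Genotypes were separate for all 9 of these. Of the genes that drive protein degradation at the end of mitosis, the ubiquitin-conjugating enzyme Ube2c had 0.93 ± 0.16 and Cdc20, which directs the anaphase-promoting complex to its substrates, 1.13 ± 0.29, and the cytokinesis genes Prc1 and Racgap1 had 0.82 ± 0.17 and 0.54 ± 0.12. Genotypes overlapped for Plk1 (0.52 ± 0.20) and Birc5 (0.74 ± 0.25). Foxm1, a transcription factor of the late cell cycle, had 0.02 ± 0.25, the smallest of the 46, and its sign changed when transgenic mouse 1 or 2 or wild type mouse 1 was left out (-0.04, -0.11 and -0.20).

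Promoters of late cell cycle genes are known for a CCAAT box, bound by NF-Y, and a cell cycle homology region (CHR), bound by the MuvB complex, both close to the start. RefSeq windows from 250 bases before to 50 after an annotated start were found for 39 of the 47 mitosis genes. The letters CCAAT or their complement stood in windows of 29 (74.4%) and TTTGAA or its complement in 27 (69.2%), and 24 genes (61.5%) had both in 1 window. Over all 27025 genes with a window the shares were 41.1%, 20.2% and 7.97%. Such matches are letters in a window, not sites shown to be used. The windows of the 3 genes with both motifs and the smallest p are given as examples, each as the 250 bases before the start, 5' to 3' on the strand of the gene (GRCm38.p6), with both motifs in capitals on either strand. In Ube2c 2 CCAAT matches on opposite strands overlap.
Cdk1, chr10:69352913-69353162, minus strand: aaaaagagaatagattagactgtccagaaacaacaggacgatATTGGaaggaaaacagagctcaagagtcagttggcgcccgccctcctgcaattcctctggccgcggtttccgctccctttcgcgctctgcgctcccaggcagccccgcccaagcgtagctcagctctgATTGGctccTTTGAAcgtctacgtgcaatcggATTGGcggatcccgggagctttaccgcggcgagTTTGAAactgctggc
Ncapg, chr5:45669675-45669924, plus strand: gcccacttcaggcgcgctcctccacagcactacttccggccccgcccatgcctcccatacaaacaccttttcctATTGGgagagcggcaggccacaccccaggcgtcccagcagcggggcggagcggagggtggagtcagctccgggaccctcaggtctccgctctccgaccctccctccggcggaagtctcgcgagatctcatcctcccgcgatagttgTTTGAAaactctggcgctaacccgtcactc
Ube2c, chr2:164769679-164769928, plus strand: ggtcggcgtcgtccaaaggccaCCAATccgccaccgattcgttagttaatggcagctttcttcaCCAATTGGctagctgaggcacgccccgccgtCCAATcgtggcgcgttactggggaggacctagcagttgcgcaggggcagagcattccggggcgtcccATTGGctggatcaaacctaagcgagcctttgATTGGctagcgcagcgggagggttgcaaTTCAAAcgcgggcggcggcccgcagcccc

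The DNA replication list ran the same way with smaller values. Of its 41 genes 40 were tested, 1 passed (Dtl), 39 had a positive difference and the median was 0.47. Genotypes were separate on the high side for 21 (52.5%, against 2.43% of all tested), and the fit over all 32 arrays called 7 (0.444% of all were called higher there). Uhrf1, which carries DNA methylation through replication, had 8.48, 8.74, 8.62 and 9.39 in transgenic nodes and 8.04, 7.79, 7.98 and 7.46 in wild type nodes (0.99 ± 0.21, adjusted p = 0.227). Rrm2, which makes deoxynucleotides, had 0.90 ± 0.19, and the loading factor Cdc6 0.77 ± 0.17. The 6 helicase subunits Mcm2 to Mcm7 had differences between 0.31 and 0.59, and the clamp Pcna 0.29 ± 0.11, none past the threshold over all probe sets. Ccne1 was the 1 member below 0, at -0.08 ± 0.17.

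E2F factors switch on replication genes in late G1 phase. The letters TTTGGCGC or TTTCGCGC, on either strand, stood in windows of 13 of the 35 replication genes that had one (37.1%), against 0.929% of all genes and 1 of 39 mitosis genes (2.56%). That 1 is Cdk1, whose window above holds TTTCGCGC in lower case. The pair CCAAT and TTTGAA was present in 4 of the 35 (11.4%). The window of Dtl, the replication gene that passed, is given in the same form with the E2F letters in capitals, beginning 8 bases before the start.
Dtl, chr1:191575545-191575794, minus strand: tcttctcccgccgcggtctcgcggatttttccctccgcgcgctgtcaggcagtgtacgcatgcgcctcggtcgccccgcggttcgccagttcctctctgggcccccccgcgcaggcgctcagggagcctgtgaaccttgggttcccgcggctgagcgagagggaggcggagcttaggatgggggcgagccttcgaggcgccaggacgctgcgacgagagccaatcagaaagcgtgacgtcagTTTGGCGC

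**Figure D3:**
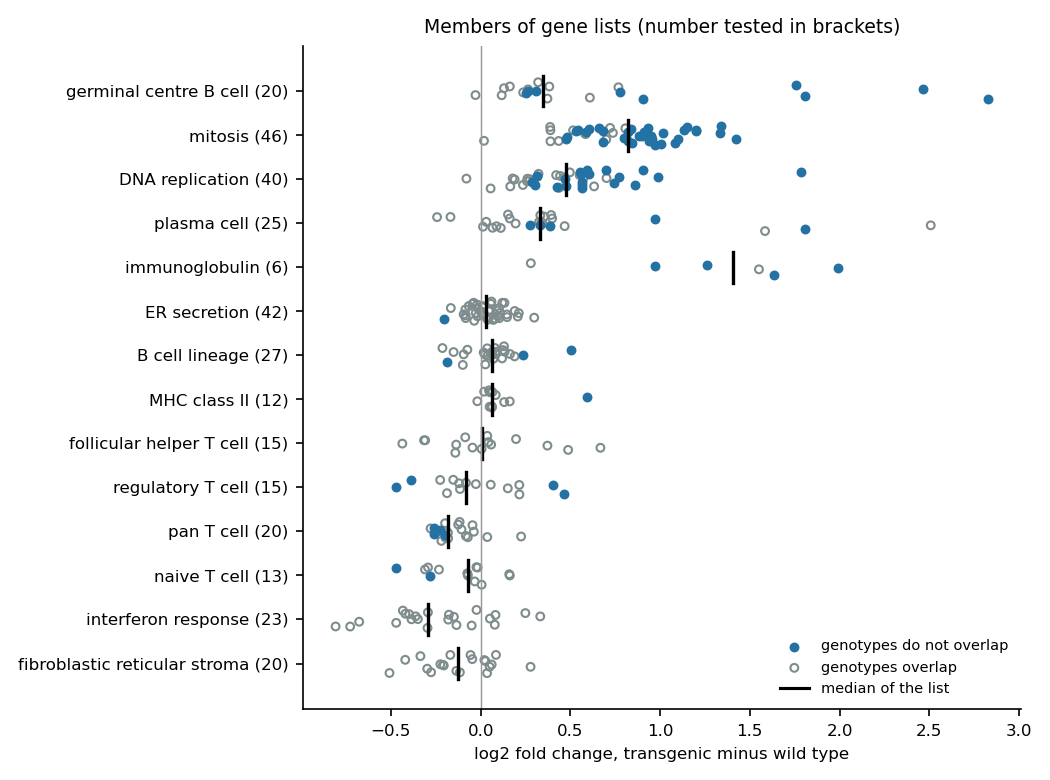
Difference in log2 intensity, transgenic minus wild type, of each tested member of 14 gene lists, filled where the 4 transgenic and 4 wild type values do not overlap, with a bar at the median of each list. The mitosis and DNA replication medians are 0.82 and 0.47, and the pan T cell median is -0.18.

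The size of the difference varied between transgenic mice. Transgenic mouse 4 had the highest of the 8 values for 42 of 46 mitosis genes, 37 of 40 replication genes and 13 of 20 germinal centre genes, while wild type mouse 4 had the lowest value for 26, 19 and 6 of them and wild type mouse 3 for 8 of the germinal centre genes. The mean of the mitosis list, centred on the 8 arrays, was 0.17, 0.46, 0.14 and 0.81 in transgenic nodes and -0.39, -0.33, -0.33 and -0.54 in wild type nodes. The germinal centre mean was 0.34, 0.37, 0.11 and 0.64 in transgenic nodes and -0.28, -0.29, -0.50 and -0.40 in wild type nodes. Transgenic mouse 3 was the lowest transgenic mouse in both lists and transgenic mouse 4 the highest, yet every transgenic mean exceeded every wild type mean.

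The list medians stayed above 0 whichever single array was left out, though their size changed. Over the 8 fits without 1 array the mitosis median was 0.66 to 0.93, the replication median 0.35 to 0.55 and the germinal centre median 0.29 to 0.40. With the 3 most muscle-rich arrays left out they were 0.94, 0.56 and 0.36.

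**Figure D4:**
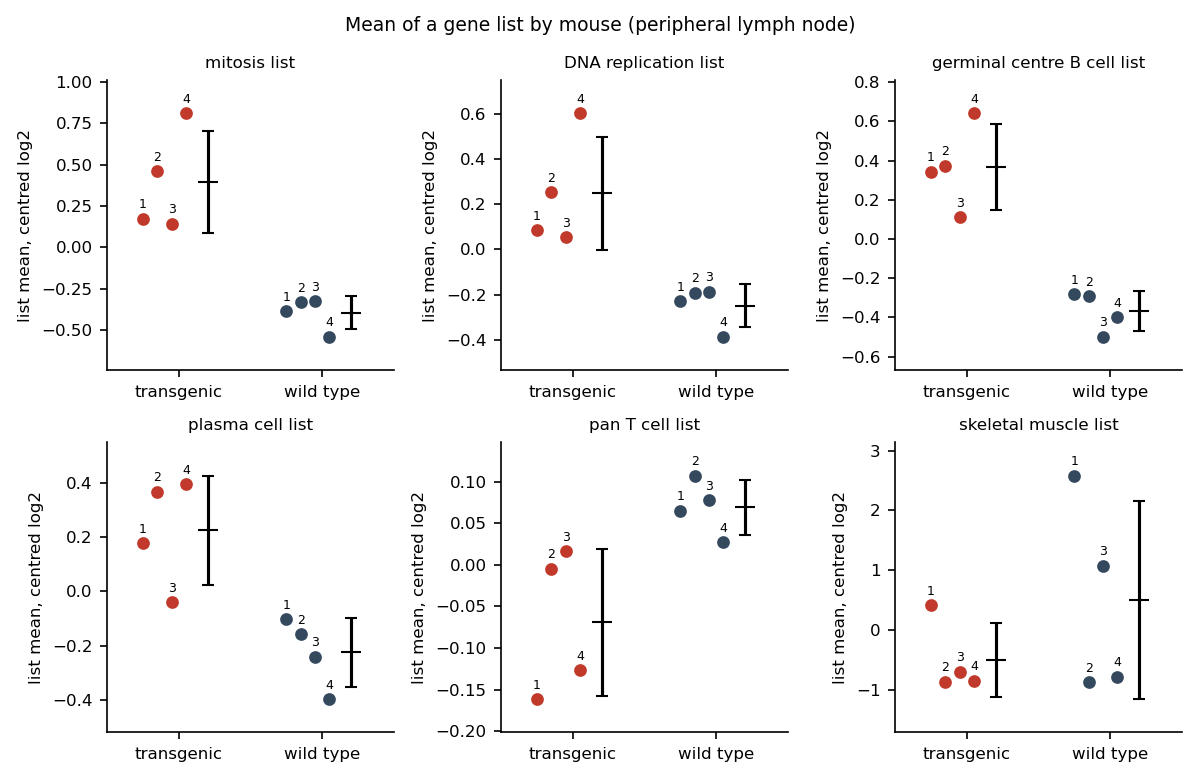
Mean of 6 gene lists by mouse, as log2 intensity centred on the 8 arrays, for transgenic (left, red) and wild type mice (right, dark), numbered 1 to 4, with mean and SD. Transgenic mouse 4 is highest for mitosis, DNA replication and germinal centre genes, and skeletal muscle genes are highest in wild type mouse 1 at 2.58.

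Antibody genes were higher in transgenic nodes on many, but not all, of their probe sets. Of 11 Ighm probe sets 9 were tested and 4 passed. The one with the largest difference had 11.64, 11.12, 10.43 and 11.53 in transgenic nodes and 7.46, 7.96, 8.58 and 7.21 in wild type nodes, a rise of 3.38 ± 0.35 (adjusted p = 0.0289). The other 3 rose by 2.51 ± 0.25, 2.64 ± 0.27 and 3.16 ± 0.34 at the same adjusted p. All 4 kept their calls without transgenic mouse 3 or wild type mouse 3 and lost them without any of the other 6 arrays (adjusted p up to 0.131).

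The brightest Ighm probe set behaved otherwise, with 13.13, 13.28, 13.25 and 12.97 in transgenic nodes and 13.08, 13.14, 12.68 and 12.61 in wild type nodes (0.28 ± 0.15, adjusted p = 0.673). The next brightest had 0.23 ± 0.11 (limma adjusted p = 0.643) and the dimmest tested 0.10 ± 0.16 (limma adjusted p = 0.904). Genotypes overlapped on each of these. Another 2 of the 5 that did not pass had separate genotypes, at 1.38 ± 0.31 and 1.78 ± 0.31. Probe sets ending in _x_at can bind several related transcripts, so which heavy chain sequence each one measured is uncertain.

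Over the immunoglobulin list, 6 of the 7 genes that matched were tested, all 6 differences were positive and the median was 1.41, with Ighm represented by its brightest probe set. Further entries matched no probe set with 1 symbol, among them Ighg1, Ighg2b, Ighg2c, Ighd, Ighe and Igkc, so the list leaves out several isotypes. Iglv1, a lambda light chain variable segment, had 11.78, 11.70, 11.24 and 11.57 in transgenic nodes and 10.34, 10.63, 10.02 and 10.25 in wild type nodes (1.26 ± 0.16, adjusted p = 0.0771). Igha, the IgA heavy chain, had 10.84, 12.17, 11.01 and 10.77 in transgenic nodes and 9.28, 10.39, 9.34 and 9.22 in wild type nodes. The genotypes were separate for both, with mouse 2 the highest of its genotype for Igha in either group. Igha differed by 1.64 ± 0.36, Ighg3, an IgG heavy chain, by 1.99 ± 0.54 and Igk, the kappa light chain, by 1.55 ± 0.47. The Igk genotypes overlapped.

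The plasma cell list (25 genes, all tested) had a median of 0.33, with 23 positive, 12 at an unadjusted p under 0.05 on the high side (4.21% of all tested) and 5 (20%, against 2.43% of all) with separate genotypes. No member passed. Jchain, which links IgM and IgA into polymers and is also in the immunoglobulin list, had 12.53, 12.78, 12.18 and 12.60 in transgenic nodes and 11.77, 11.88, 11.57 and 10.99 in wild type nodes (0.97 ± 0.21, adjusted p = 0.227). Slpi, a secreted protease inhibitor, had 8.99 to 12.04 in transgenic nodes and 7.89 to 9.04 in wild type nodes. Transgenic mouse 3 lay among the wild type values for Slpi, and the difference was 2.51 ± 0.60.

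The regulators of the plasma cell state differed by less. Prdm1, which encodes the repressor Blimp-1, had 0.27 ± 0.10 with separate genotypes and Irf4 0.39 ± 0.16. Xbp1, which expands the secretory apparatus, had 0.11 ± 0.09 and Sdc1, the surface marker CD138, 0.07 ± 0.12. The list of endoplasmic reticulum secretion genes stayed near 0, with a median of 0.03 over 42 genes and no member that passed. None had an unadjusted p under 0.05 on the high side (4.21% of all tested) and 1, Kdelr2 (-0.20 ± 0.08), on the low side (4.15% of all tested). Genotypes were separate for 1 gene, on the low side (2.38%, against 2.92% of all tested).

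General B cell genes stood nearer 0 than germinal centre genes, a contrast that was not tested. The B cell lineage list had a median of 0.07 over 27 genes with no member that passed, and Ms4a1, which encodes CD20, had 12.43, 12.38, 12.29 and 12.35 in transgenic nodes and 12.23, 12.30, 12.02 and 12.25 in wild type nodes (0.16 ± 0.09). Genotypes were separate on the high side for 2 members (7.41%, against 2.43% of all tested) and on the low side for 1 (3.7%, against 2.92%), with Pou2f2 (0.50 ± 0.16) and the BAFF receptor Tnfrsf13c (0.24 ± 0.09) higher and Cd40 (-0.19 ± 0.08) lower. In the list of B cell activation and class switching, 24 genes had a median of 0.15 with no member that passed, and the exonuclease Exo1 of mismatch repair had 0.63 ± 0.20 with separate genotypes. MHC class II genes, which B cells and dendritic cells use to present antigen, had a median of 0.06 over 12 genes. Their transactivator Ciita stood apart from them with 9.88, 9.56, 9.79 and 9.88 in transgenic nodes and 9.20, 8.89, 9.34 and 9.29 in wild type nodes (0.60 ± 0.13, adjusted p = 0.223).

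Genes common to all T cells were mostly lower in transgenic nodes by small amounts, and none passed. Of the 20 tested, 18 had a negative difference, the median was -0.18, and the 4 transgenic values lay below the wild type values for 4 (20%), where 2.92% of all tested probe sets did so. On the low side 5 had an unadjusted p under 0.05 (4.15% of all tested). Lat, an adaptor of the T cell receptor, had 10.90, 10.97, 11.09 and 11.05 in transgenic nodes and 11.25, 11.26, 11.28 and 11.25 in wild type nodes (-0.26 ± 0.08, adjusted p = 0.422). Cd3e and Cd8a, parts of the receptor complex and the CD8 coreceptor, also had separate genotypes, at -0.23 ± 0.09 and -0.26 ± 0.11. Cd4 was the largest exception at 0.23 ± 0.24, with overlapping genotypes. In the values as deposited, without normalization, the median of all tested probe sets was 0.18 and that of the T cell list -0.02, a difference of -0.20 between the list and all probe sets. Negative list medians smaller in size than that shift were above 0 in the deposited values.

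No member of the T cell subset lists passed. Of 13 naive T cell genes 10 had a negative difference, and 2 (15.4%, against 2.92% of all tested) had separate genotypes on the low side. In the naive T cell list (median -0.07, 13 genes) Il7r, the receptor for interleukin 7, had 10.77, 10.80, 10.97 and 10.57 in transgenic nodes and 11.26, 11.52, 11.02 and 11.20 in wild type nodes (-0.47 ± 0.13, adjusted p = 0.374). In the regulatory T cell list (median -0.08, 15 genes) members lay on both sides. Genotypes were separate for 13.3% each way, against 2.43% higher and 2.92% lower of all tested. Gpr83 (-0.47 ± 0.09) and Il2ra (-0.39 ± 0.12) were lower with separate genotypes and Klrg1 (0.46 ± 0.11) and Ikzf2 (0.40 ± 0.11) higher, while Foxp3, the factor that defines these cells, had 0.06 ± 0.15.

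Follicular helper T cells support germinal centres, and their list had a median of 0.01 over 15 genes with no separate genotypes and no member that passed. Il21, their cytokine, had 0.67 ± 0.21, Cxcr5, which leads them into follicles, -0.14 ± 0.15 and Pdcd1, which encodes PD-1, -0.31 ± 0.12. Of the 21 cytotoxic and natural killer genes (median -0.03), Gzmk, a granzyme of effector memory T cells, stood apart with 7.43, 7.74, 6.81 and 7.45 in transgenic nodes and 5.71, 5.90, 6.27 and 5.83 in wild type nodes. Its difference of 1.43 ± 0.20 had an adjusted p of 0.117, and the fit over all 32 arrays called it (adjusted p = 0.00358).

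Neither the overexpressed ligand nor its receptor passed on this array. Tnfsf8 had 6.56, 6.56, 6.48 and 6.58 in transgenic nodes and 6.52, 6.44, 6.70 and 6.48 in wild type nodes (0.01 ± 0.09, adjusted p = 0.984). The sources used here do not say which part of the gene the transgene contains, so this probe set does not check the labels. Tnfrsf8 had 5.78, 6.01, 5.89 and 5.40 in transgenic nodes and 5.77, 5.91, 5.89 and 6.31 in wild type nodes (-0.20 ± 0.16, adjusted p = 0.788). The 24 tested genes of the TNF and TNF receptor families had a median of -0.01 and the 23 of TRAF and NF-kB signalling -0.06, with no member of either that passed. Cd27 (0.39 ± 0.14) and Tnfrsf13c were the 2 higher family members with separate genotypes, and Traip (0.38 ± 0.14), which is a ubiquitin ligase of DNA repair despite its name, the 1 higher member of the signalling list with separate genotypes. On the low side these were Cd40 in the family list and Traf6 (-0.11 ± 0.08) in the signalling list, where 18 of 23 differences were negative. Separate genotypes made up 8.33% of the family list on the high side and 4.17% on the low side. In the signalling list they made up 4.35% each way, against 2.43% higher and 2.92% lower of all tested probe sets.

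The largest differences outside these lists were found by a rule on size and separation. On the high side Psca, a surface antigen of epithelia, had 6.73, 6.43, 6.29 and 7.98 in transgenic nodes and 4.81, 5.40, 4.67 and 4.00 in wild type nodes (2.13 ± 0.41, adjusted p = 0.186), and Cyb5r3, a reductase, 1.52 ± 0.38. On the low side, after Slc39a13, came Gga1, a Golgi adaptor (-1.21 ± 0.27), Tpm2, a muscle tropomyosin (-1.05 ± 0.29), Igfbp6, a binding protein for insulin-like growth factors (-1.02 ± 0.19), Hrk, an activator of cell death, and Cd248, a marker of fibroblasts and pericytes (-0.99 ± 0.17). Hrk averaged 5.85 ± 0.52 in transgenic nodes and 6.85 ± 0.12 in wild type nodes (SD, n = 4 each), and the fit over all 32 arrays called it and Psca (limma adjusted p = 0.0046 and 0.0468). Adding 64 before log2 gave 1.15 for Psca and 0.76 for Cyb5r3, and -0.61 for Hrk and -0.65 for Cd248. Apart from Slc39a13, no gene of this paragraph passed. Among all tested probe sets with separate genotypes, 83 of the 657 higher and 12 of the 788 lower ones differed by more than 1 log2 unit.

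Transcripts of other tissues moved with some arrays. The skeletal muscle list (19 of 25 genes tested) had a median of -1.08, and its mean was 0.41, -0.87, -0.70 and -0.85 in transgenic nodes and 2.58, -0.88, 1.07 and -0.78 in wild type nodes. Summed over its 25 genes, the normalized intensity was 1292 to 3501 in transgenic and 1386 to 18560 in wild type nodes. Leaving out wild type mouse 1 gave a median of -0.27, and it was -0.08 with the 3 most muscle-rich arrays left out. Tpm2 and Actn2 (-0.94 ± 0.16), genes of contractile cells, are among the 15 largest negative differences with separate genotypes, and they stood at -1.01 and -0.72 with those 3 arrays left out.

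Fat surrounds lymph nodes, and its brown form was uneven between mice. Ucp1, which produces heat in brown fat, had 9.01, 11.36, 11.61 and 10.85 in transgenic nodes and was 11.44 in wild type mouse 3, at the floor of 4.00 in wild type mice 2 and 4 and between these in wild type mouse 1. All 4 transgenic mice and wild type mouse 3 were high, and the difference of 4.10 ± 1.55, the largest of all tested probe sets, had an adjusted p of 0.531. With the 3 most muscle-rich arrays left out, among them wild type mouse 3, it was 7.26 (adjusted p = 0.0055). Cidea, another gene of brown fat, had 8.80, 10.52, 10.96 and 10.20 in transgenic nodes and 7.64, 6.09, 10.93 and 7.16 in wild type nodes. The part of brown fat in other differences was not tested. The general adipocyte list did not follow, with a median of -0.10 over 17 genes and summed intensities of 32806 to 43639 in transgenic and 32721 to 44777 in wild type nodes.

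The neutrophil list had a median of 0.28 over 13 genes, or 0.11 without transgenic mouse 1, whose list mean was 1.06 against at most 0.02 on the other 7 arrays. Genes induced by interferon had a median of -0.29 over 23 genes and 18 negative differences, with no separate genotypes. Their list mean was -0.12, -0.35, 0.22 and -0.25 in transgenic nodes and 0.65, 0.29, -0.08 and -0.37 in wild type nodes. Wild type mouse 1 held the highest value for 17 of the 23, and the median was -0.13 without it. Fibroblastic reticular stroma (median -0.13, 20 genes), high endothelial venules (-0.10, 16 genes), macrophages (-0.04, 22 genes) and dendritic cells (-0.10, 21 genes) had no member that passed. Of these, stroma stood at 0.05 without normalization, a difference of -0.13 from all probe sets in that setting.

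The same 8 mice allowed the transgenic effect to be set beside that of their other tissues. No probe set passed for a difference between peripheral lymph node and mesenteric lymph node, spleen or thymus in limma fits of each mouse's difference, with 0% of 26148, 25147 and 24636 probe sets, and 1438 (5.5%), 1867 (7.42%) and 2417 (9.81%) at an unadjusted p under 0.05. Against mesenteric lymph node the smallest p belonged to the probe set without a symbol, whose difference was 3.19 in peripheral and 0.52 in mesenteric nodes (2.67 ± 0.25 between them, adjusted p = 0.0792). For 3 of the 4 called Ighm probe sets the difference between the nodes was 2.81 to 3.89, with an adjusted p of 0.327. Rgs13 had 2.83 in peripheral and 1.03 in mesenteric nodes (1.80 ± 0.29, adjusted p = 0.501).

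In spleen the differences of these probe sets were also large. Rgs13 rose there by 2.89 ± 0.30 and the probe set without a symbol by 3.28 ± 0.33 (limma adjusted p = 0.0466 for each), and peripheral node minus spleen was -0.06 ± 0.30 and -0.08 ± 0.41 for them (adjusted p = 0.979 for each). Neither was tested in thymus. The 4 Ighm probe sets called in peripheral node had 1.87 to 2.41 in spleen with separate genotypes and 2.25 to 2.83 in thymus with overlap, none past the threshold in either tissue. Peripheral node minus spleen was 0.62 to 0.96 and peripheral node minus thymus 0.26 to 0.55 for these (adjusted p at least 0.783).

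Against spleen, the smallest p were those of Adam15 (0.77 in peripheral node and -0.31 in spleen, adjusted p = 0.249), Havcr1, which encodes TIM-1 (0.13 and 2.52), Cdc20 (0.87 on its second probe set and -0.19) and Pdcd1 (-0.31 and 1.19). Against thymus, Dtl had 1.79 in peripheral node and -0.15 in thymus (adjusted p = 0.127) and Stil, a centriole protein needed for division, 1.31 and -0.04 (adjusted p = 0.170). Stil lay near the filter for testing and was tested in only 4 of the peripheral node fits without 1 array. Slc39a13 was lower with separate genotypes in peripheral and mesenteric nodes and thymus, at -2.74, -1.51 and -1.43, and stood at 0.21 in spleen with overlap. It passed in peripheral node only (limma adjusted p = 0.972 in mesenteric node and 0.663 in thymus).

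By list, the mitosis median was 0.82 in peripheral node, 0.44 in mesenteric node, -0.33 in spleen and 0.02 in thymus. The replication median was 0.47, 0.38, -0.26 and 0.06 in the same tissues. Germinal centre genes had 0.35, 0.29, 0.61 and 0.03. In spleen the division lists lay below 0 and the germinal centre list above it, and differences between tissues were not tested for lists. The pan T cell median was -0.18, -0.05, 0.29 and -0.10. Immunoglobulin genes had 1.41 in peripheral and -0.08 in mesenteric nodes, 0.47 in spleen and 0.45 in thymus.

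**Figure D5:**
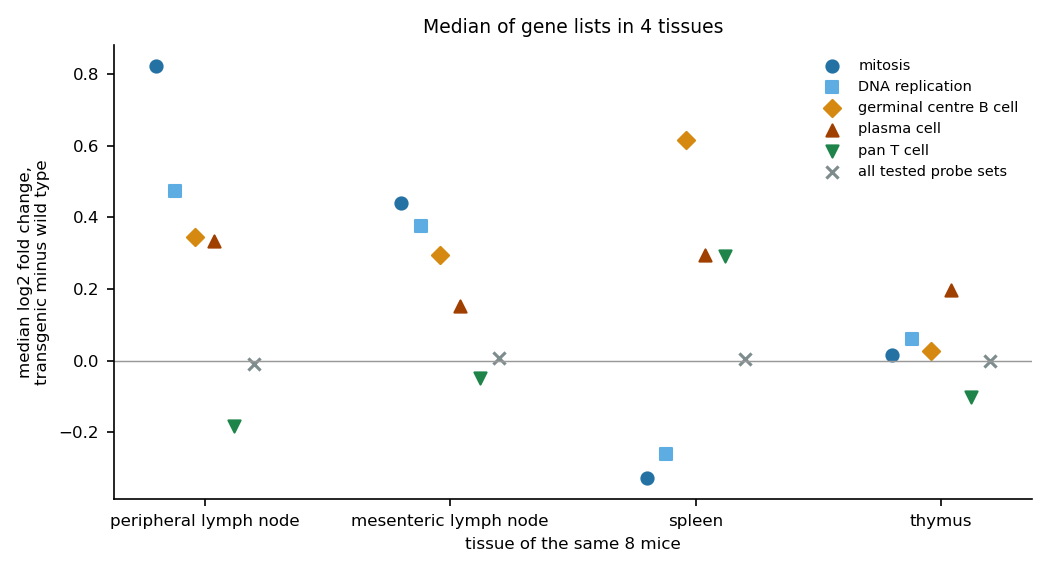
Median difference in log2 intensity, transgenic minus wild type (y axis), of 5 gene lists and of all tested probe sets in the 4 tissues of the same 8 mice (x axis). The mitosis median is 0.82 in peripheral lymph node and -0.33 in spleen, while the median of all tested probe sets is close to 0 in each tissue.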

How the data were processed

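Total RNA, purified on spin columns per the labels' protocols, was measured on 1 expression array per tissue and mouse. The deposited values are intensity per probe set, some of them negative; the algorithm and scaling the authors used were not given in the sources used here. From the 45101 probe sets, 64 controls were left out. Values below 0 were set to 0, 16 was added, log2 was taken, and the 8 arrays of the tissue were quantile normalized. Testing covered the 27022 probe sets whose mean exceeded the 40th percentile, with limma 3.58.1 (R 4.3.3); a probe set passed at a Benjamini-Hochberg adjusted p under 0.05; 18015 were not tested. Dtl, Mef2b, Mybl1, Psca, Cyb5r3 and Slc39a13 cleared this filter only through the genotype in which they were higher. Other dim probe sets, those of Stil and Csn2 and the dimmer one of Gcsam among them, may have done so too. Differences between tissues were fitted on each mouse's difference. The fit was tested on simulated data. The number of arrays limits the precision, and only the spread between these mice enters the p-values.

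Symbols came from the platform annotation, updated to GRCm38.p6 for 34741 of 34945 probe sets with 1 symbol; 932 had several and 9160 none. A gene in a list is represented by its brightest probe set over the 32 arrays, and 766 of 861 entries of 38 lists matched. Named were Tnfsf8 and Tnfrsf8, all calls with the other probe sets of their genes, the 15 largest differences each way with separate genotypes and an unadjusted p under 0.01, up to 6 members of each list by p with those that define a role, and the 5 smallest p between tissues; further list members, most of the cell division genes among them, were named for their roles after their values were seen. The members and lists were chosen with earlier results of these data known. Promoter sequences are from RefSeq (GRCm38.p6). Alternatives were the number added, normalization, filter, fit, array weights, the mouse number and each array left out; the fits without the 3 muscle arrays and with the mouse as a random block were chosen after seeing the data. Figures were drawn in Python 3.11.15.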

Additional observations from a re-analysis of the deposited data

Results flagged for a closer look

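In 316 groups of 4 arrays, those of the probe sets named above and of the list means, the highest or lowest array stood apart from the other 3 in 18, where the gap divided by the range exceeded Dixon's 95% critical value. Chance gives about 5% of groups, a share close to the one seen, so these arrays are listed and not read as results. On transgenic arrays mouse 4 was high for Gcsam (8.31, against 7.38 to 7.46 on the other 3), Pou2f2 (9.15, against 8.64 to 8.71) and a Dtl probe set that did not pass (6.66, against 5.75 to 5.88), and low for Gga1 (5.57, against 6.68 to 6.87). Mouse 3 was low for Tnfsf8 (6.48, against 6.56 to 6.58), and mouse 1 was high for Havcr1 (8.20, against 7.81 to 7.86) and the mean of the skeletal muscle list (0.41, against -0.87 to -0.70).

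On wild type arrays mouse 2 was high for Igha (10.39, against 9.22 to 9.34) and 1 Ighm probe set (6.85, against 6.29 to 6.36). Mouse 3 was low for Bub1 (6.09, against 6.42 to 6.44), Cd79a (12.18, against 12.47 to 12.49) and Foxp3 (6.42, against 6.82 to 6.85), and high for another Dtl probe set that did not pass (6.73, against 6.34 to 6.39). Mouse 1 was high for Tpm2 (8.61, against 7.79 to 7.91) and low for Foxm1 (6.31, against 7.15 to 7.24), the mitosis gene with the smallest difference. Mouse 4 was high for Cd8a (10.36, against 10.08 to 10.09), and low for Rgs1 (8.89, against 9.23 to 9.28) and the mean of the cytotoxic and natural killer list (-0.21, against 0.05).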

How the results depend on the processing

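The 10 calls of the peripheral lymph node were 112 without normalization, where the median of all tested probe sets was 0.18, 6 without a filter, 18 with an intensity trend and robust moderation, 128 in 1 fit over all 32 arrays, 125 in that fit with the mouse as a random block (correlation 0.0163), and 1 without the 3 muscle arrays. The counts without 1 array ran from 0 to 11. Of the calls, 8 were shared without normalization, 3 without a filter and 8 with the 32 arrays. Adding 1 or 64, a common median, a filter at the 60th percentile and array weights gave 7, 11, 8, 9 and 13. With the mouse number as a replicate block 2 probe sets passed, none of them among the 10 (Rgs13 adjusted p = 0.182). Arrays of the same number correlated at 0.0657, 0.33, -0.0182 and 0.109 and 1 of the 4 best with its own number, so the numbers are not taken to pair the mice. The difference from mesenteric node, 0 calls, gave 1 when adding 64, 10 without normalization, 1 with a common median and 1 with a filter at the 60th percentile, and that from spleen, also 0, gave 2 without a filter. The cause was not tested. Over 2360 comparisons of 120 probe sets of named genes with an alternative, 2119 kept direction and side of the threshold, 100 lost and 103 gained a call, and 38, on 19 probe sets, changed sign, none of them of a value called in either setting. Without normalization Tnfrsf8 was 0.0023, Traf6 0.10, Lmo2 0.13, Ccne1 0.088, Cxcr5 0.027, Cxcl13 0.018 and a Dtl probe set that did not pass 0.047. With a common median Cd79a was -0.013 and Glycam1 -0.088. With array weights Lmo2 was 0.011, Foxp3 -0.024 and the second Poc1b probe set -0.00432. Without the 3 muscle arrays Foxm1 was -0.27, Cd79a -0.044, Havcr1 -0.33 and 2 uncalled Dtl probe sets 0.039 and -0.15. Over the fits without 1 array Tnfsf8 ran from -0.022 to 0.066, Lmo2 from -0.16 to 0.090, Foxm1 from -0.20 to 0.17, Ccne1 from -0.18 to 0.032, Sdc1 from -0.0096 to 0.15, Cd79a from -0.011 to 0.093, Cd4 from -0.041 to 0.37, Foxp3 from -0.047 to 0.16 and Havcr1 from -0.16 to 0.28, and uncalled probe sets of Adam15 from -0.047 to 0.30, Ighm from -0.035 to 0.21 and Poc1b from -0.032 to 0.17. List medians changed sign in 51 of 608 comparisons, 20 of them without normalization. The number of arrays limits what could be detected.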

Other observations

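Vps54, Ugp2 and Mdh1, neighbouring genes on mouse chromosome 11 that act in vesicle tethering, sugar nucleotide synthesis and malate oxidation, were chosen after their values were seen. Of their 14 probe sets, the 4 transgenic values lay above the 4 wild type values for 12 in peripheral node, 11 in mesenteric node, 10 in spleen and 11 in thymus, where 2.43%, 2.71%, 2.8% and 2.54% of all tested probe sets did so. The differences were 0.23 to 0.90, -0.07 to 1.14, 0.21 to 0.98 and 0.20 to 1.08 in these tissues. None passed in any of the 4, and the smallest adjusted p was 0.117, 0.357, 0.321 and 0.0873.

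Csn2, a milk casein in the list of mammary epithelium, had 6.12 to 7.21 in transgenic nodes and 4.91 to 5.55 in wild type nodes, a difference of 1.35 ± 0.23 (adjusted p = 0.143). The other caseins did not share it, with Csn1s1 at 0.34 and Csn3 at -0.42, and the list had a median of -0.09 over 9 genes.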
